A study of Mus musculus with 8 samples.

Results

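Vascular endothelial growth factors and angiopoietins are the secreted signals that build and maintain the capillaries of the pancreatic islet, and 10 genes of these 2 systems are described here in islets of mice with and without the transcription factor NFATc2 in beta cells. They are the ligands Vegfa, Vegfb and Vegfc, the VEGF receptor tyrosine kinases Flt1 and Kdr, the co-receptors Nrp1 and Nrp2, the angiopoietin Angpt2, its receptor Tek and the related receptor Tie1. The genes were selected by name from the authors' table of knockout over wild type with cytokines, and they were proposed with values of these tables known. All 10 named genes were present among 16333 genes in the deposited tables. Calls in that comparison, by the authors' model or by limma, are therefore given as a description and support nothing.

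Islets came from 2 NFATc2βKO mice (KO below), in which tamoxifen removed NFATc2 in vivo from cells that the labels call INS-1 expressing cells of adult mice, and from 2 Wildtype mice (WT below), which also received tamoxifen and kept the gene. The strain label of all mice is Agouti/C57BL6, and the growth protocol names C57BL/6 mice from a supplier beside the transgenic mice. The labels give no age of the mice. Islets of each mouse were hand-picked, kept overnight in 5.5 mM glucose and then divided: 1 portion stayed untreated for 2 h, and the other received 11 mM glucose and a cocktail of IFNγ (50 ng/mL), TNFα (10 ng/mL) and IL1β (5 ng/mL) for 2 h. Raised glucose is named only with the cocktail, so effects of glucose and of the cytokines cannot be told apart, and the glucose level of the untreated portion during those hours is not stated. RNA of whole islets was sequenced, and the deletion concerns only 1 of the cell types in it. This gave 8 libraries, 2 in each of 4 groups.

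VEGF-A is made by beta cells and acts on the dense, fenestrated capillaries of the islet. It binds Kdr (VEGF receptor 2), the main signalling receptor of endothelial cells, and Flt1 (VEGF receptor 1), which binds the ligand tightly, signals weakly and also exists in a soluble form. Neuropilins hold VEGF at its receptors and also serve semaphorins. Angiopoietin-2 is stored and released by endothelial cells and competes with angiopoietin-1 at Tek (Tie2), which keeps vessels quiescent, while Tie1 partners Tek without a main ligand of its own. NFAT factors themselves are known as relays of VEGF signals inside endothelial cells, through calcium and calcineurin.

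The promoters of Kdr, Flt1 and Vegfa are shown because Kdr and Flt1 are the 2 members below the authors' threshold for KO over WT with cytokines and Vegfa is their shared ligand. Each line is the 250 bases before the annotated start in RefSeq (GRCm38.p6), on the minus strand of the gene's chromosome: Kdr at chr5:75978456-75978705, Flt1 at chr5:147726012-147726261 and Vegfa at chr17:46032378-46032627. Capitals mark GGAA on either strand (written TTCC where it lies on the other strand), the core that ETS factors bind, and, where another A follows, the GGAAA core that NFAT factors bind.
Kdr: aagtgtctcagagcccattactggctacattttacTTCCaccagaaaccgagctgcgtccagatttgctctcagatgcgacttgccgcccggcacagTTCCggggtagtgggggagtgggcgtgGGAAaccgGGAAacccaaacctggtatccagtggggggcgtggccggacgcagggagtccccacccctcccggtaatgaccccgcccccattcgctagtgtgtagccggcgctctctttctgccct
Flt1: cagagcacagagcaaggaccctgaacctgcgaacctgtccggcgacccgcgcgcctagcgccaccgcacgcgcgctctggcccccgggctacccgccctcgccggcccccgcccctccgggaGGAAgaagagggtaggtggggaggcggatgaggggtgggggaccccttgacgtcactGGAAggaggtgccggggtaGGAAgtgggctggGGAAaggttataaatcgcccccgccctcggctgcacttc
Vegfa: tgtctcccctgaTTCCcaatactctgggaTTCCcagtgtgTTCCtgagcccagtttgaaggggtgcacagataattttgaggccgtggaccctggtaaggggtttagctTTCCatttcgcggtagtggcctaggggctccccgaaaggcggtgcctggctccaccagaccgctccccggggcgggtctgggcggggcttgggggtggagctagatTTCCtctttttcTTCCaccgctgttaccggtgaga
RefSeq windows were found for 9 members, with 2 for Vegfa, and Angpt2 had no entry. Kdr held 4 GGAA cores and 2 of the longer GGAAA, Flt1 held 4 and 1, and Vegfa held 6 and 2. All 10 windows held GGAA, as did 93.4% of 32851 windows of the same length. GGAAA was in 7 of 10 windows (all except Vegfc, Nrp2 and Tek) and in 55.6% of all windows. The hypoxia core ACGTG (both strands) was found only in the second Vegfa window, inside the gene, against 16.6% of all windows, and GCGTG was in 6 of 10 against 28.2%. These letters are common, and a match describes the sequence and not a bound site.

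The 10 genes lie on 6 chromosomes of GRCm38. Flt1 (chr5:147561604-147726011) and Kdr (chr5:75932827-75978458) share chromosome 5, Tek (chr4:94739289-94874976) and Tie1 (chr4:118471191-118490061) share chromosome 4, and Vegfc (chr8:54077606-54187096), Nrp1 (chr8:128358604-128503363) and Angpt2 (chr8:18690263-18741562) share chromosome 8. Vegfa is at chr17:46016993-46032369, Vegfb at chr19:6982473-6987651 and Nrp2 at chr1:62703285-62818695. Counts were made over annotated genes, and only Nrp1 shares exon bases with another gene, the microRNA gene Mir1903, over 80 bases.

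Library depth ran from 14508018 to 26773500 reads assigned to genes. Each group held 1 female and 1 male mouse, read from Y-linked genes and Xist, and libraries are named by that sex because the deposited columns carry no replicate number. All values by library below are read counts divided by the authors' size factor (normalized counts). Nfatc2, the targeted gene, stood at 842 to 1167 normalized counts in the 4 KO libraries and at 1144 to 1646 in the 4 WT libraries, which overlapped, and its log2 fold change was -0.49 (SE 0.23, FDR 0.903) untreated and -0.56 (SE 0.24, FDR 0.474) with cytokines in the authors' deposited tables. The cytokine-induced chemokine Cxcl10 rose by 2.72 on the log2 scale in KO islets (SE 0.48, FDR 1.5e-04), and its log2 fold change in WT islets was 2.14 (SE 0.51, FDR 0.13). The NF-κB inhibitor gene Nfkbia rose by 0.96 in KO islets (SE 0.18, FDR 7.7e-04) and had 0.64 in WT islets (SE 0.19, FDR 0.808). The 7 beta cell markers with library values summed to 76045 to 90792 normalized counts in all libraries, and 19 endothelial markers to 5992 to 11945, so both the labelled tissue and its vessels were represented.

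Per kilobase of exon, Vegfa was by far the most abundant of the 10 genes, with 2028 to 2603 normalized counts per kb over the 8 libraries, a mean level above that of 98.7% of genes. Vegfb followed with 310 to 374 per kb, and neither range met that of the next gene. Among receptors the order was Kdr (96.8 to 255 per kb), Flt1 (96.6 to 170), Nrp1 (38 to 75.8), Nrp2 (39.1 to 72.2), Tie1 (33.3 to 70.2) and Tek (22.7 to 53.9). Angpt2 lay between Flt1 and Nrp1 with 78 to 134 per kb, and Vegfc was lowest with 7.96 to 27.9. Ranges of neighbours overlapped for Kdr and Flt1, Flt1 and Angpt2, each pair from Nrp1 to Tek, and Tek and Vegfc. Such ranges take the libraries of all groups together and do not order these neighbours. Within each library Flt1 per kb was still below Kdr per kb, at 0.669 to 0.998 of it. In every library Flt1 also exceeded Angpt2, Tie1 exceeded Tek (1.16 to 1.72 times) and Tek exceeded Vegfc. The order of Nrp1 and Nrp2 changed between libraries (ratio 0.819 to 1.26). Tie1 exceeded Nrp2 in the untreated WT male library (58 against 53.1 per kb).

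**Figure D1:**
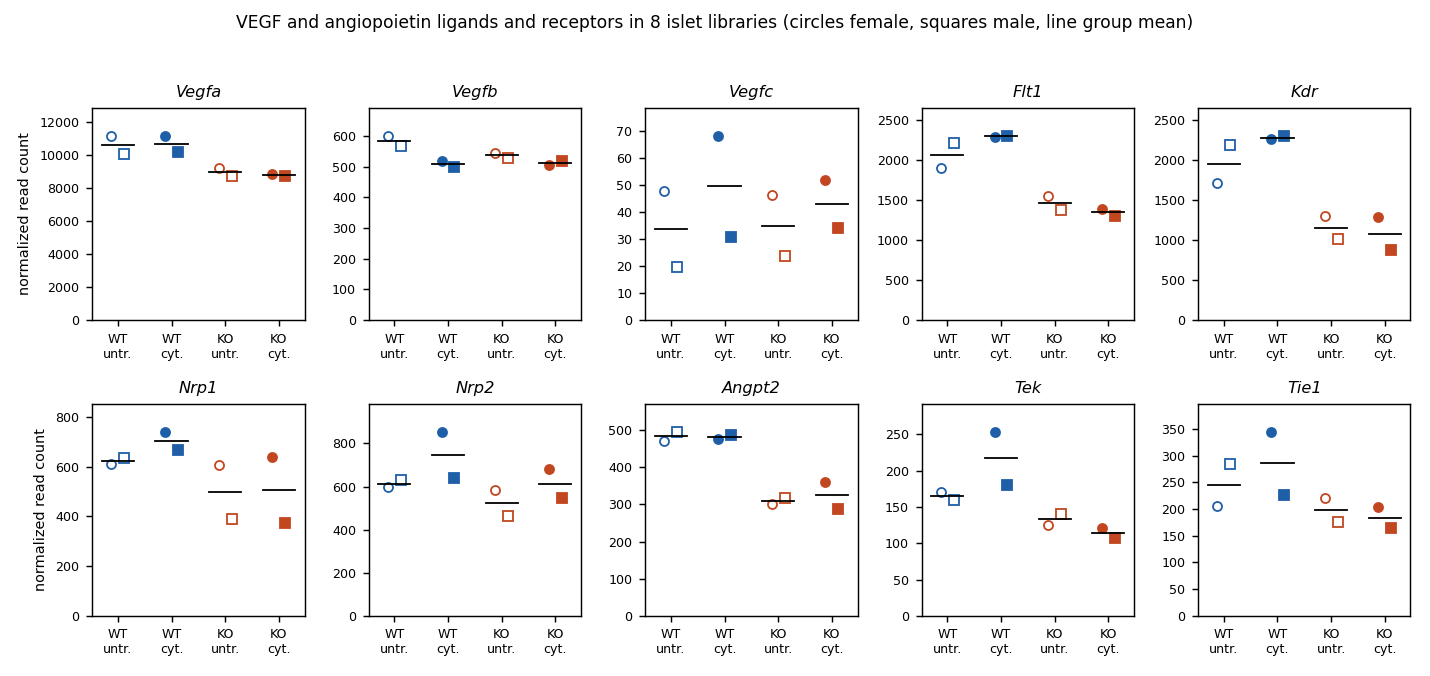
Normalized read counts (vertical axes, each from 0) of the 10 genes in the 4 groups, with a point per library (circles female, squares male; open untreated, filled with cytokines; blue WT, red KO) and a line at the mean of 2. All KO points lie below all WT points for Vegfa, Flt1, Kdr, Angpt2 and Tek, whereas Vegfc separates female from male mice.

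Vegfa, the ligand that beta cells supply to the capillaries, was lower in every KO library. It counted 9199 and 8688 normalized counts in untreated KO islets (female and male mouse), 8826 and 8735 in KO islets with cytokines, 11136 and 10040 in untreated WT islets, and 11152 and 10164 in WT islets with cytokines. The highest KO library was below the lowest WT library, although the step was small. The log2 fold change of KO over WT was -0.24 untreated (SE 0.11, FDR 0.81 in the authors' deposited table), a difference of -15.5%, which did not pass the FDR threshold of 0.05. With cytokines it was -0.28 (SE 0.11).

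Vegfb, a ligand of Flt1 and Nrp1, showed little genotype difference. Untreated KO islets held 546 and 529 normalized counts and untreated WT islets 601 and 568. KO islets with cytokines held 505 and 520 and WT islets with cytokines 520 and 498, which overlapped. Its log2 fold change with cytokines was 0.01, with a 95% interval of -0.28 to 0.30, and untreated it was -0.12 (-0.41 to 0.17).

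Vegfc, the lymphangiogenic ligand, was followed at low depth, and its values separated by mouse. Values were 46.3 and 23.7 normalized counts in untreated KO islets, 52 and 34 in KO with cytokines, 47.9 and 19.5 in untreated WT, and 68.4 and 30.8 in WT with cytokines. The female mouse was 1.53 to 2.46 times the male mouse in all 4 groups, and both genotypes overlapped. Several summed marker lists were also higher in the female mouse of each group: stromal by 1.29 to 5.97 times, alpha cell by 1.88 to 2.6, acinar by 2.17 to 6.23, delta and PP cell by 1.29 to 1.63 and lymphatic by 1.23 to 2.01. With 1 mouse of each sex per genotype, sex and mouse cannot be told apart, and the part of these tissues was not tested. The 95% interval of its genotype difference was wide, -1.53 to 1.11 on the log2 scale with cytokines.

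Kdr, the main endothelial signalling receptor, differed between the genotypes in both treatments, more in male than in female mice. It counted 1296 and 1006 normalized counts in untreated KO islets and 1712 and 2186 in untreated WT islets. With cytokines it counted 1280 and 874 in KO and 2255 and 2300 in WT. No KO library reached a WT library. Its log2 fold change of KO over WT was -0.76 untreated (SE 0.22, FDR 0.112 in the authors' deposited table) and -1.08 with cytokines (SE 0.22), so that mean Kdr in KO islets was 0.59 and 0.472 of WT. Among female mice the KO to WT ratio was 0.757 untreated and 0.568 with cytokines, and among male mice it was 0.46 and 0.38. In the 2-mouse means Kdr had the largest difference of the 10 genes, but among female mice alone Angpt2 (0.639) and Tek (0.732) had lower ratios untreated and Tek (0.474) with cytokines.

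Flt1, the tight-binding receptor, followed the same order. It counted 1550 and 1377 normalized counts in untreated KO islets, 1383 and 1304 in KO with cytokines, 1901 and 2209 in untreated WT and 2286 and 2301 in WT with cytokines. The 2 WT libraries with cytokines were almost equal, and all 4 KO libraries lay below all 4 WT libraries. The log2 fold change was -0.49 untreated (SE 0.14, FDR 0.0665 in the authors' deposited table) and -0.77 with cytokines (SE 0.14). Flt1 per kb was 0.722 to 0.998 of Kdr per kb in KO libraries and 0.669 to 0.742 in WT libraries, ranges that overlapped at the KO female library with cytokines.

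The neuropilins, co-receptors that are also made outside vessels, had genotype intervals that included 0 and a spread between KO mice. Nrp1 counted 608 and 388 normalized counts in untreated KO islets, 639 and 372 in KO with cytokines, 612 and 635 in untreated WT and 742 and 666 in WT with cytokines. The KO female mouse was near the WT values and the KO male mouse far below them, so the female to male ratio was 1.57 and 1.72 in KO islets against 0.963 and 1.11 in WT islets. Nrp2 counted 584 and 463 in untreated KO islets, 679 and 549 in KO with cytokines, 598 and 629 in untreated WT and 855 and 641 in WT with cytokines. The log2 fold change untreated was -0.32 for Nrp1 (95% interval -0.91 to 0.26) and -0.23 for Nrp2 (-0.66 to 0.20). The interval with cytokines was -1.06 to 0.10 for Nrp1 and -0.71 to 0.14 for Nrp2.

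Angpt2, the vessel-destabilizing angiopoietin, was lower in every KO library. It counted 301 and 318 normalized counts in untreated KO islets, 360 and 288 in KO with cytokines, 471 and 496 in untreated WT and 476 and 487 in WT with cytokines. The 4 WT libraries lay close together, all above the KO libraries. Untreated, its log2 fold change was -0.64 (SE 0.19, FDR 0.0936 in the authors' deposited table), and the KO to WT ratio was 0.639 in female and 0.641 in male mice. With cytokines it was -0.58 (SE 0.19), with ratios of 0.757 and 0.591.

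Tek and Tie1, the receptor pair of the angiopoietin system, are the least abundant receptors of the 10 genes. Tek counted 125 and 141 normalized counts in untreated KO islets, 121 and 107 in KO with cytokines, 170 and 159 in untreated WT and 254 and 180 in WT with cytokines. No KO library reached a WT library, and the WT female library with cytokines was the highest. Tie1 counted 221 and 175 in untreated KO islets, 203 and 164 in KO with cytokines, 206 and 285 in untreated WT and 345 and 227 in WT with cytokines. Untreated Tie1 values overlapped between genotypes. The log2 fold change was -0.31 for both untreated (SE 0.29 for Tek, 0.31 for Tie1), and with cytokines it was -0.93 for Tek (SE 0.29) and -0.64 for Tie1 (SE 0.31).

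Over the 10 genes, the untreated comparison gave 9 negative log2 fold changes of KO over WT and 1 positive, with a median of -0.31 against 0.00 over all genes. The untreated values too were known when the genes were proposed, so this comparison is not independent of the choice. In the authors' deposited Wald test none of the 10 was below an FDR of 0.05, against 0.41% of all genes. At an unadjusted p below 0.05 by that model there were 4, namely Vegfa, Flt1, Kdr and Angpt2, against 4.89% of all genes. With limma and mouse sex as covariate none passed either, and the smallest adjusted p were 0.0524 for Angpt2 and 0.0587 for Flt1. In that fit the untreated and cytokine libraries of a mouse count as independent, which makes its p too small. In 8 of the 10 genes both untreated KO libraries were below both untreated WT libraries (all except Vegfc and Tie1), which held for 18.3% of all genes.

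With cytokines 9 of the 10 log2 fold changes were negative, with a median of -0.53 against 0.00 over all genes. Flt1 and Kdr had an FDR below 0.05 in the authors' deposited table, as did 0.998% of all genes. The next were Tek, at 0.083, and Angpt2, at 0.126. This is the table the genes were selected from, so the count is a description. By limma on library values the calls depended on the model: with neither sex nor mouse in it none of the 10 was called, and with sex as covariate Flt1, Kdr and Tek were, as were 3.72% of all genes. In 7 genes both KO libraries with cytokines were below both WT libraries (Vegfa, Flt1, Kdr, Nrp1, Angpt2, Tek and Tie1), against 14.2% of all genes. In 5 genes (Vegfa, Flt1, Kdr, Angpt2 and Tek) all 4 KO libraries were below all 4 WT libraries, against 4.76% of all genes. The 2 libraries of a mouse are not independent, and each genotype is represented by 2 mice.

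**Figure D2:**
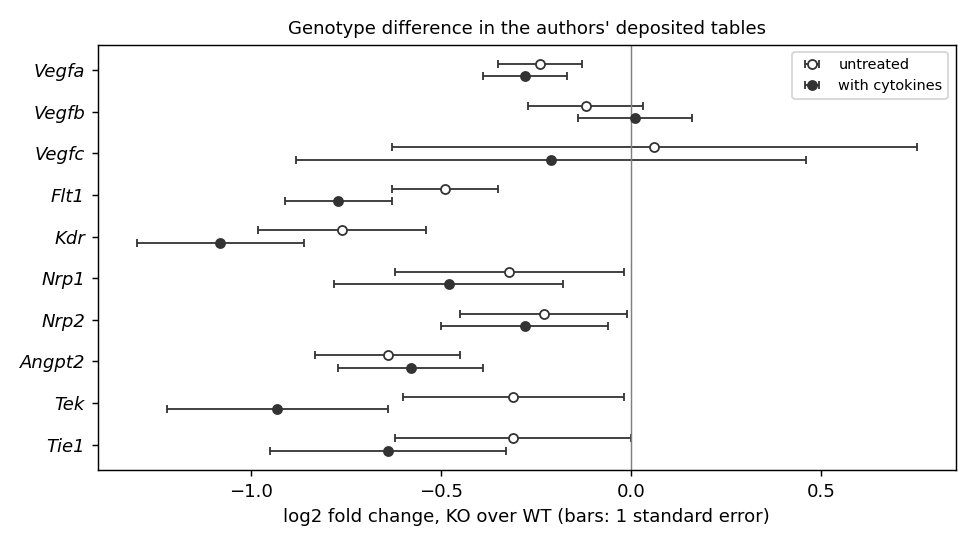
Log2 fold change of KO over WT for each gene (horizontal axis; bars are 1 standard error) in the authors' deposited tables, untreated (open) and with cytokines (filled). In these 2-mouse means Kdr lies farthest from 0, at -0.76 and -1.08, and Vegfb lies near 0, at -0.12 and 0.01.

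The summed RNA of endothelial markers differed in the same direction as the receptors. Of 20 endothelial markers 19 were measured (Cldn5 was not in the tables), none was at 0 in any library, and their sum was 5992 to 7650 normalized counts in KO libraries and 8880 to 11945 in WT libraries. The KO to WT ratio of the sum was 0.778 untreated and 0.61 with cytokines. Of the 19 markers 15 had a negative log2 fold change untreated, with none called, and all 19 with cytokines, with 7 called lower. These were the junction proteins Pecam1 (-0.64, FDR 0.00245) and Cdh5 (-0.65, FDR 0.0154), the sialomucin Emcn (-1.13, FDR 0.0023), the TGF-β co-receptor Eng (-1.18, FDR 9.4e-04), Egfl7 (-0.84, FDR 0.0277), Robo4 (-0.77, FDR 0.00506) and the phosphatase Ptprb (-0.67, FDR 0.0301), all log2 fold changes from the authors' deposited Wald test. All 4 KO libraries were below all 4 WT libraries for 13 of the 19, against 4.76% of all genes. In RNA of whole islets, fewer endothelial cells and less RNA of a gene per endothelial cell cannot be told apart.

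Kdr stayed apart when counts were set against those markers. Per 100 normalized counts of the endothelial sum, Kdr stood at 16.9 and 14.3 in untreated KO islets, 17.4 and 14.6 in KO with cytokines, 19.3 and 21.8 in untreated WT and 18.9 and 23.2 in WT with cytokines. The genotypes did not overlap, and the log2 ratio of group means was -0.40 in both treatments. Flt1 on the same scale ran from 18.8 to 21.8 in KO and from 19.1 to 23.2 in WT libraries, which overlapped. Angpt2 (3.93 to 4.9 against 3.98 to 5.3), Tek (1.63 to 2 against 1.59 to 2.13) and Tie1 (2.48 to 2.89 against 2.29 to 2.89) overlapped as well. Kdr was the only one of the 10 genes with all 4 KO libraries below all 4 WT libraries on this scale, which held for 0.159% of all genes. The sum itself was lower in every KO library, so dividing by it raises KO against WT for every gene. That makes the share over all genes small and no fitting background for an endothelial gene. Of the 19 endothelial markers only 1 shared this, Emcn (3.36 to 4.71 in KO against 4.98 to 6.11 in WT). In all, 26 genes did, Kdr and Emcn included. Among the others were Hey1 (0.383 to 0.675 against 0.704 to 1.06) and Sema3g (0.755 to 0.966 against 1.07 to 1.22). The vasoconstrictor gene Edn1 (0.383 to 0.466 against 0.56 to 0.731) was another. Sv2b, Kcnh1 and Prom1, which are on none of the marker lists, were there as well. These genes were named after their values were seen, and the pattern was not particular to endothelial genes. Vegfb was the only one with all 4 KO libraries above all 4 WT libraries, as did 62.5% of all genes. Dividing by the sum was chosen with the values known and has no test.

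**Figure D3:**
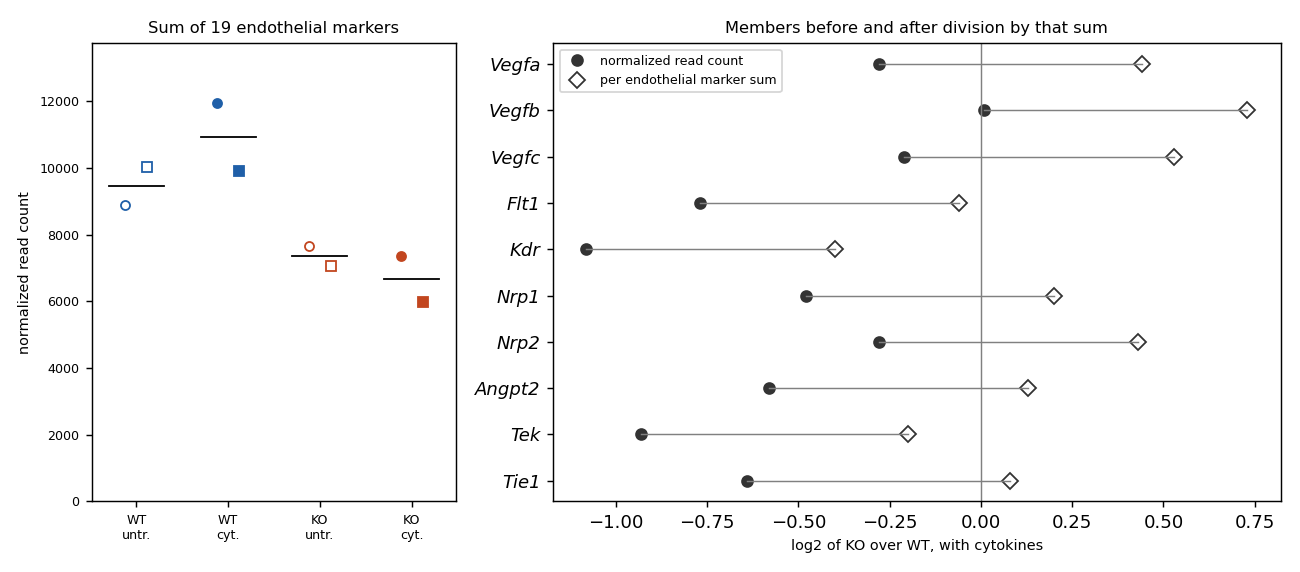
Left, summed normalized counts of 19 endothelial markers per library (circles female, squares male; open untreated, filled with cytokines; line at the mean of 2), lower in all KO than in all WT libraries. Right, log2 ratio of KO over WT with cytokines for each gene as normalized counts (filled) and per endothelial marker sum (open): Kdr moves from -1.08 to -0.40 and Flt1 from -0.77 to -0.06.

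Summed markers of lymphocytes, macrophages and lymphatic vessels also separated the KO from the WT libraries, and those of other cell types overlapped. The lymphocyte marker sum (4 of 5 markers, with Ms4a1 at 0 in 1 library) was 341 to 1305 normalized counts in KO and 156 to 210 in WT libraries, and macrophage markers summed to 2738 to 3376 against 1724 to 2239. Stromal markers summed to 4560 to 13096 in KO and 1162 to 9846 in WT. Pericyte and smooth muscle markers summed to 2080 to 2852 against 2072 to 3065, and acinar markers to 21979 to 113984 against 6829 to 59180. With both treatments together each of these sums overlapped between genotypes. Untreated, the stromal sum did not, at 9777 and 4982 in KO and 1494 and 1162 in WT, a KO to WT ratio of 5.56. All 7 stromal markers were then positive, and Dcn was called higher by the authors' deposited Wald test (2.36, SE 0.54, FDR 0.00605). The acinar ratio was 1.43 untreated and 3.95 with cytokines, with overlapping libraries in each. Lymphatic markers (4 of 5 measured) summed to 373 to 496 in KO and 544 to 1101 in WT. A large part was the VEGF receptor gene Flt4, at 211 to 292 in KO and 337 to 517 in WT libraries. The lymphatic matrix gene Reln was at 13.4 to 27.9 against 61.9 to 165, and was called lower with cytokines (-2.16, SE 0.60, FDR 0.0364). All 4 markers were negative for KO over WT in both treatments, but whether the sum separated without Flt4 and Reln was not tested. Beta cell markers overlapped with both treatments together, at 83343 to 90792 against 76045 to 85741. With cytokines alone they were higher in KO, at 86330 and 84265 against 76045 and 81828. The part of these cells in the values of the 10 genes was not tested.

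None of the 10 genes passed the threshold for a change with the cytokine cocktail in either genotype by the authors' deposited Wald test. In it 0.0429% of all genes passed in KO and 0.0122% in WT islets. None of the 10 had an unadjusted p below 0.05 by that test either. That level was reached by 166 of 16333 genes in KO and 150 in WT islets, so its absence among 10 genes says little. Vegfa differed little in all 4 mice: the change of its library with cytokines against the untreated library of the same mouse was -4.06% and 0.543% in the KO female and male and 0.145% and 1.23% in the WT female and male. The 95% interval of its log2 fold change was -0.26 to 0.20 in KO and -0.22 to 0.24 in WT islets. With limma and each mouse as its own control (replicate block), 20 genes passed in KO and 25 in WT islets, again without any of the 10. In that fit 6 of the 10 genes had an unadjusted p below 0.05 in WT islets (Vegfb, Vegfc, Flt1, Kdr, Nrp2 and Tek; 12.1% of all genes) and none did in KO islets (8.33% of all genes). The 6 had adjusted p between 0.332 for Kdr and 0.408 for Vegfc.

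In 3 genes all 4 mice lay on the same side of no change, without passing the test. Nrp2 was higher with cytokines by 16.2% and 18.7% in the KO mice and by 42.9% and 1.82% in the WT mice. Vegfc was higher by 12.4% and 43.6% in KO and by 43% and 58.2% in WT. Vegfb was lower by 7.47% and 1.7% in KO and by 13.4% and 12.4% in WT. Higher values in all 4 mice were found for 12.4% of all genes and lower values for 12.5%, so these counts of 2 and 1 of 10 are near the background. Limma over both genotypes at once, each mouse a block, called 0.883% of all genes and none of the 10: the log2 change was 0.25 for Nrp2 (SE 0.07, adjusted p = 0.148), 0.46 for Vegfc (SE 0.17, adjusted p = 0.231) and -0.13 for Vegfb (SE 0.05, adjusted p = 0.257).

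For Flt1, Kdr and Tek KO and WT mice lay on opposite sides of no change. Kdr with cytokines differed from the untreated library by -1.24% and -13.1% in the KO mice and by 31.7% and 5.24% in the WT mice. Flt1 differed by -10.8% and -5.27% in KO and by 20.3% and 4.19% in WT, and Tek by -3.29% and -24.2% in KO and by 49.3% and 13% in WT. A pattern of lower in both KO mice and higher in both WT mice was present in 3 of the 10 genes and in 4.15% of all genes. The endothelial marker sum moved with it in 3 of the mice, while the WT male went from 10033 to 9920. That sum went from 7650 to 7356 and from 7055 to 5992 in the KO female and male and from 8880 to 11945 in the WT female. The WT female had the larger WT change for each of the 3 genes. In that mouse the stromal marker sum went from 1494 to 9846 and the pericyte and smooth muscle sum from 2072 to 3065. In the WT male they went from 1162 to 1649 and from 2311 to 2362. The part of such tissue in the changes with cytokines was not tested. Tested as the difference of both deposited fold changes, KO minus WT was -0.35 for Kdr (95% interval -0.82 to 0.13), -0.28 for Flt1 (-0.64 to 0.07) and -0.61 for Tek (-1.46 to 0.25) on the log2 scale, with an adjusted p of 0.999989 over all genes. The percentage of all genes passing was 0, with 36 genes at an unadjusted p below 0.05. With limma and the mouse as block these 3, which had been picked for their opposite directions, had an unadjusted p below 0.05, as did 4.08% of all genes, and the adjusted p was 0.998 for each.

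By direction alone, 5 of the 10 genes were lower with cytokines in both KO mice (Vegfb, Flt1, Kdr, Tek and Tie1; 30.9% of all genes) and 2 were higher (30.5%). In WT islets 7 were higher in both mice (Vegfa, Vegfc, Flt1, Kdr, Nrp1, Nrp2 and Tek; 26.9% of all genes) and 1 was lower (25.9%). Angpt2 gave no common direction in either genotype, with 19.7% and -9.46% in KO and 1.08% and -1.79% in WT. Tie1 was 67.6% higher in the WT female and 20.3% lower in the WT male, so a higher WT mean rests on the female mouse.

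**Figure D4:**
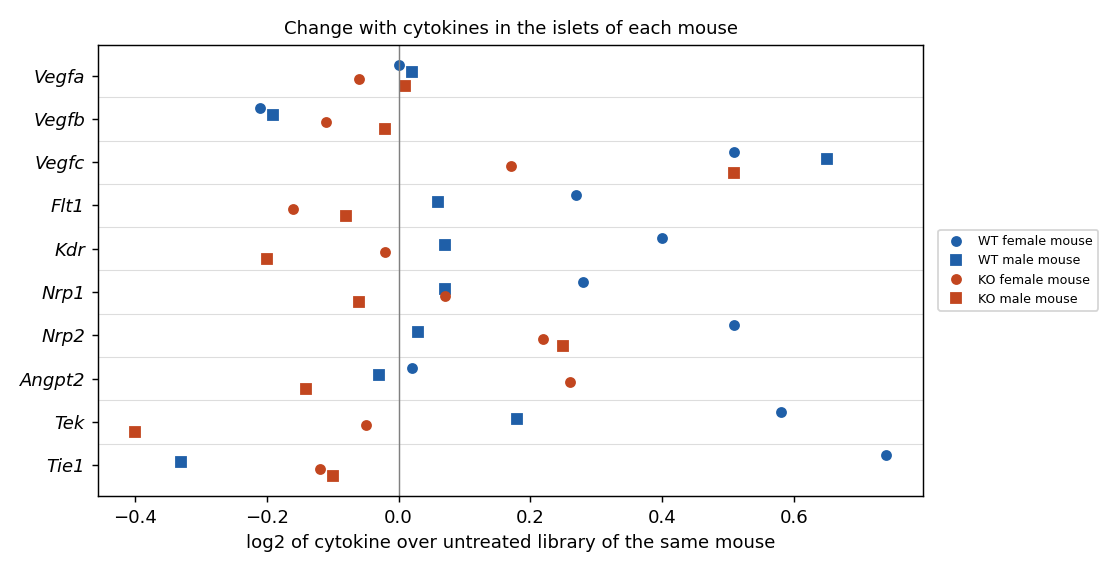
Log2 of the library with cytokines over the untreated library of the same mouse (horizontal axis) for the 10 genes, with a point per mouse (circles female, squares male; blue WT, red KO). For Flt1, Kdr and Tek both WT points lie right of 0 and both KO points left of 0, and the WT female mouse is farthest right for each.

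Other genes of the pathway were read from gene lists, and no list was tested as a set. Of 21 further VEGF and angiopoietin pathway genes 15 were measured and none was called in any of the 4 comparisons. The lymphatic receptor Flt4 had the largest difference named, at -0.86 for KO over WT with cytokines (SE 0.26, FDR 0.0835), with 211 to 292 normalized counts in KO and 337 to 517 in WT libraries. The kinase Src was 0.53 in the untreated comparison (SE 0.18, FDR 0.292). With cytokines the list split into 8 positive and 7 negative, with a median of 0.05.

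Among neuropilin partners (10 of 13 measured), the endothelial semaphorin Sema3g was called lower in KO with cytokines (-1.24, SE 0.35, FDR 0.0397), and the other measured members were not called. Tip and stalk cell genes of sprouting vessels were all 12 negative for KO over WT with cytokines, with a median of -0.48 against 0.00 over all genes, and the endothelial receptor Notch4 was called lower (-0.88, SE 0.24, FDR 0.0301). Among 14 of 16 antiangiogenic and matrix regulators, the angiogenesis inhibitor Thbs1 was called lower with cytokines (-0.74, SE 0.20, FDR 0.0236), with 2883 to 3644 normalized counts in KO and 3701 to 6309 in WT libraries. Like Flt1 and Kdr, Thbs1 was lower in all KO than in all WT libraries.

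The hypoxia response, which lies upstream of Vegfa, held no called gene among 18 of 20 measured in any comparison. With cytokines 16 of the 18 were negative for KO over WT, with a median of -0.12, and untreated 12 of 18 were positive, with a median of 0.08. The collagen hydroxylase P4ha1 was -0.43 with cytokines (SE 0.13, FDR 0.0718), and the oxygen sensor Egln1 was -0.26 (SE 0.12, FDR 0.576). The 11 genes listed as VEGF-NFAT targets of endothelial cells were all positive with cytokines in both genotypes, and none was called. Their median log2 change was 0.31 in KO and 0.88 in WT islets, against 0.00 over all genes in each. Which cells and which signals lay behind these changes in whole islets was not tested. The adhesion molecules Icam1 (0.83, SE 0.51 in KO; 1.19, SE 0.52 in WT) and Sele (0.22, SE 1.03 in KO; 2.53, SE 1.12 in WT) had the smallest p in that list. Sele stood at 7.98 (female) and 3.44 (male) normalized counts in untreated WT islets and at 65.2 and 8.33 with cytokines.

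The genes most like Vegfa and Kdr over the 8 libraries were taken from 14227 genes with a mean of at least 50 normalized counts, by Pearson correlation of log2 values. For Vegfa these were Pigr (r = 0.988), Slc6a17 (0.987), Naa25 (0.982) and Srrm4 (0.982). The transporter gene Slc6a17 counted 1577 to 1764 normalized counts in KO and 2139 to 2832 in WT libraries. For Kdr they were the Notch target Hey1 (0.988), the endothelial sialomucin Emcn (0.986), H6pd (0.985) and Negr1 (0.975). Hey1 counted 51.6 and 31.1 in untreated KO islets, 40.6 and 22.9 in KO with cytokines, 62.5 and 107 in untreated WT and 92.3 and 102 in WT with cytokines, so it followed Kdr in every group. The 8 points share 4 mice and 2 genotypes, and the correlations are a description.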

How the data were processed

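RNA of islets was sequenced in 8 libraries. GRCm38 is the build per the submitters' processing notes, which also list DESeq2, HISAT2 and HTSeq but neither their versions nor what each did. Strand and the treatment of reads that fit several genes are not stated there. The 4 deposited tables hold the authors' comparisons for 16333 genes, in which the second genotype is called Mut. No label uses that name, and it was taken for Wildtype, the remaining genotype. The deposited signal columns are group or overall means of reads after scaling by a size factor per library. The deposited log2 fold change and score (a Wald statistic) gave the standard error as their ratio. The deposited p-values and FDR were used as they stand, and a gene was called at FDR below 0.05. The smallest deposited overall mean was 23.2, so low genes had been removed.

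Because each group mean covers 2 libraries of whole reads, the reads of each library were recovered from the 10 printed digits of the deposited means for 16312 genes (99.871%), the 10 members included, and the method was tested on simulated data. Within a group the female and male mouse were told apart by 4 Y-linked genes and Xist. Pairing of libraries by mouse was checked on 14222 genes: the female minus male deviations correlated at 0.752 (KO) and 0.740 (WT) between both treatments of the same mice, and at 0.449 and 0.484 between different mice. Limma 3.58.1 (R 4.3.3, trend, Benjamini-Hochberg) was fitted to log2(normalized count + 0.5) with no block, with the mouse as block or with sex as covariate. For the interaction, the KO minus WT difference of the deposited cytokine fold changes was divided by its standard error (both errors added in squares), with a two-sided normal p. Exon lengths and positions come from GENCODE release M21. With 2 mice per genotype, p-values measure only the spread between these libraries.

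The members, gene lists and alternatives were chosen with earlier results of these data known. Besides the 10 members, the text names Nfatc2, Cxcl10 and Nfkbia, the 4 genes most correlated with Vegfa and with Kdr, and, from lists, the called genes or else the 2 with the smallest p.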

Additional observations from a re-analysis of the deposited data

Results flagged for a closer look

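The log2 change with cytokines in KO islets minus that in WT islets was -0.28 for Flt1, -0.35 for Kdr and -0.61 for Tek. These were singled out because both KO mice were lower and both WT mice higher with cytokines than untreated. The difference itself was tested from the authors' deposited fold changes and did not pass after adjustment over all genes (adjusted p = 0.999989), nor with limma and the mouse as block (adjusted p = 0.998).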

How the results depend on the processing

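The same pattern of calls was not kept by every test. Against the authors' deposited counts of called genes (7 for the KO and 2 for the WT cytokine response, 67 for KO over WT untreated and 163 with cytokines), limma with no replicate block gave 0, 0, 2 and 2, total-read scaling 0, 0, 3 and 2, and a pseudocount of 5 gave 0, 0, 2 and 2. The replicate block by mouse gave 20 and 25 for the cytokine responses, and the sex covariate 342 untreated and 606 with cytokines, with Flt1, Kdr and Tek among the latter. Leaving out 1 library was run with limma without a block, which already called few genes with all libraries, and gave 0 to 0 for both cytokine responses, 0 to 2 for KO over WT untreated and 0 to 0 with cytokines. When only genes averaging 50 or more were adjusted, the authors' p-values called 103 genes with cytokines. Of the 10 members, Flt1 and Kdr were called with cytokines in the authors' table, 0 with limma without block, with total-read scaling, with a pseudocount of 5 or with limma without 1 library (0 to 0, as with all libraries), and at an FDR of 0.1 there were 2 untreated (Flt1 and Angpt2). The cytokine response of both genotypes together called 144 genes with the replicate block, 0 with no replicate block, and 30 to 178 when 1 mouse was left out. The cause of these differences was not tested. The replicate block changed no member's call. Without 1 library the log2 fold change with cytokines was -1.38 to -0.83 for Kdr and -0.81 to -0.73 for Flt1. Of 480 member fold changes under alternatives, 444 moved by less than 1 standard error or stayed called, 14 moved by more, all on leaving out 1 library, 22 called ones were no longer past the threshold, and 0 called ones reversed. Many of these 480 could not move, so their count is no measure of robustness. A left-out library outside a comparison leaves its fold change as it was. Block and sex terms returned the same estimates as limma without them. In an alternative added after seeing the data, members with both KO below both WT libraries numbered 8 to 9 untreated (31.6% to 39.1% of all genes) and 7 to 10 with cytokines (24.6% to 39.4%) when 1 library was left out, which can only keep or raise such counts. Each genotype rests on 2 mice, and Vegfc, with 19.5 to 68.4 normalized counts, had intervals too wide to bound a change.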
